A study of Taxus x media with 6 samples.

Results

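The steady abundant genes of Taxus × media twigs were described across 6 trees. A gene belonged to the set when it reached at least 100 TPM in every library, when its highest TPM was at most 1.5 times its lowest over the 6 libraries, and when it was not among the 100 genes with the highest mean TPM. TPM gives each transcript's abundance as a share of a total that is the same in every library. Of 43846 listed genes, 554 (1.26%) met the rule. The values of all 6 libraries chose these genes, so their levels, ranges and sex differences are given as a description and not as a test.

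Taxus × media is a dioecious hybrid yew, an evergreen whose trees are either female or male, and is known as a source of the anticancer diterpenoid paclitaxel, and the study asked how the sexes differ. RNA was taken from twigs of 3 female and 3 male trees grown in the same climate setting, and polyadenylated RNA was sequenced, with 1 library per tree. No treatment was applied, and the labels name no age, cultivar or parentage. P-values therefore measure the spread between trees of unknown relatedness. The files pair no identifier with a gene name, so no member has a known function, and the labelled tissue could not be checked against marker genes.

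In plants, genes that are transcribed strongly and evenly commonly serve the basic upkeep of the cell: ribosomal proteins, translation factors, histones, ubiquitin, cytoskeletal proteins and enzymes of central metabolism. Such genes are used as references when samples are scaled to each other, because a gene whose output per cell does not change reads out differences in total RNA or in sampling. A TPM value is a share of a fixed total. If one class of genes takes a larger share of a library, every other gene in that library is listed lower even where its transcript number per cell is the same. In bulk twigs, fewer cells of a type and less RNA per cell cannot be told apart.

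The libraries were alike in total, with 997065 to 998035 TPM each, and differed in how many genes were listed above 0 (38652 in female tree 1 to 41505 in female tree 2). Read depth cannot be recovered from TPM, so no value here carries a counting interval. Female tree 2 stood apart: 1215 genes had at least 1 TPM there and were listed at 0 in the other 5 libraries, and they held 2.44% of its TPM. Without this tree the rule chose 644 genes. Leaving out any library loosens the rule, and without female tree 3 it chose 636.

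The members lay in the upper part of the transcriptome, below its extreme. Their mean TPM ran from 106.2 to 975, with a median of 188 and quartiles of 139.6 and 264. By level, 182 members averaged 100 to 150 TPM, 129 averaged 150 to 200, 132 averaged 200 to 300, 70 averaged 300 to 500 and 41 averaged 500 to 1000. Ranked by mean TPM over all listed genes, the members fell between rank 101 and rank 1236. Together they made up 13.6%, 13.2% and 13.4% of total TPM for female trees 1, 2 and 3. For male trees 1, 2 and 3 they made up 12.96%, 12.7% and 12.9%. The female mean was 13.4% ± 0.172 and the male mean 12.8% ± 0.121 (SD, n = 3), and all 3 female libraries lay above all 3 male ones. The sum over the members was 4.40% higher in female trees.

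Within the set, most genes stayed well inside the limit of 1.5. The highest-over-lowest ratio had a median of 1.28, with quartiles of 1.204 and 1.37. A ratio of at most 1.1 was found in 15 members, at most 1.2 in 130, and between 1.4 and 1.5 in 97. The coefficient of variation over the 6 libraries had a median of 9.36% and reached 18.2%. The ratio hardly moved with level inside the set: its median was 1.26 at 100 to 150 TPM and 1.296 at 500 to 1000 TPM. The median member had a within-sex SD of 0.12 log2 units among females and 0.077 among males, against 0.36 and 0.31 over all 41430 tested genes.

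The limits of the rule cut through a continuous range. The last gene inside the ratio limit stood at 1.498, with 223 TPM in female tree 1 and 334 TPM in male tree 1 as its extremes, and the first gene outside stood at 1.5001, with 113 TPM in male tree 2 and 170.2 TPM in female tree 2. At the floor, the last member had a lowest value of 100.08 TPM and the first gene left out had 99.9 TPM. At the upper end, the member of rank 101 averaged 975 TPM, and the steady gene of rank 100, averaging 982 TPM, was left out. A further 78 genes at 100 TPM or more in every library, outside the 100 highest means, had ratios between 1.5 and 1.6, and 81 genes with a ratio of at most 1.5 missed the floor with a lowest value of 90 to 100 TPM.

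The 2 members with the lowest ratio show what steadiness meant in these libraries. TRINITY_DN27299_c0_g2, whose function is unknown, stood at 106.29, 110.85 and 105.63 TPM in female trees 1, 2 and 3 and at 104.61, 105.71 and 104.11 TPM in male trees 1, 2 and 3, a ratio of 1.06. The sexes overlapped, because male tree 2 (105.71 TPM) lay above female tree 3 (105.63 TPM). It was also the member with the lowest mean. TRINITY_DN27125_c2_g1 stood at 126.51, 123.07 and 118.34 TPM in female and 118.65, 122.52 and 124.25 TPM in male trees, a ratio of 1.07. Its highest and lowest values were both in female trees. After TMM-type scaling, which divides each library by a trimmed mean of its log ratios, the ratios of these 2 genes were 1.26 and 1.296, and they ranked 63 and 95 among the members instead of first and second.

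Steadiness was common among abundant genes and rare among weak ones. Of the 983 genes at 100 TPM or more in every library, 600 had a ratio of at most 1.5, of which 46 were among the 100 highest means and 554 were members. The other 329 abundant genes outside the 100 highest means had a median ratio of 1.77, and 109 of them exceeded 2. By mean level over all tested genes, the share with a ratio of at most 1.5 was 2.59% at 1 to 5 TPM, 14.1% at 5 to 10 TPM and 37.6% at 10 to 20 TPM. It was 50.8% at 20 to 50 TPM, 55.6% at 50 to 100 TPM and 56.7% at 100 to 200 TPM, and then 51.9%, 43.8% and 45.9% at 200 to 500, 500 to 1000 and 1000 or more TPM. The share thus stood highest at 50 to 200 TPM. The counting error behind the low levels is unknown, and its part in these shares was not tested.

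**Figure D1:**
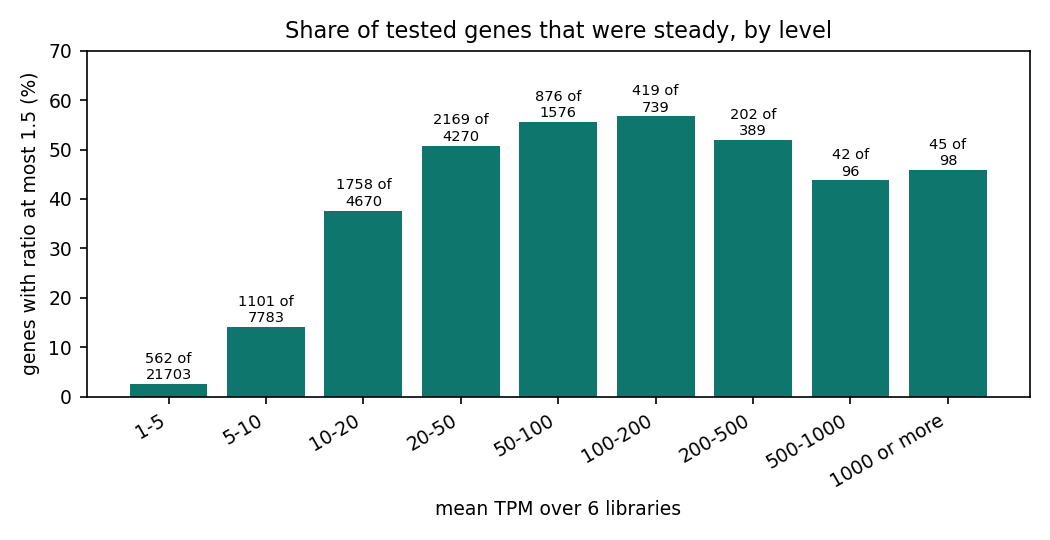
Share of tested genes whose highest TPM was at most 1.5 times the lowest over the 6 libraries (y axis, percent), by mean TPM over the 6 libraries (x axis). Bars carry the number of steady genes of all tested genes in the bin. The share rises from 2.59% at 1 to 5 TPM to 56.7% at 100 to 200 TPM and is 45.9% at 1000 TPM or more.

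Whether a gene that was even in some trees was even in another was read from libraries that took no part in the choice. The rule was applied to 5 libraries at a time, which chose 583 to 644 genes, and the remaining library was then set against them. Of the genes chosen without it, 94.1% kept a ratio of at most 1.5 once female tree 1 was added, 88.2% with female tree 2 and 88.1% with female tree 3. For male trees 1, 2 and 3 these shares were 96.2%, 95.3% and 94.9%. All 3 male libraries lay above all 3 female ones in this share. None of the chosen genes was listed at 0 in the library held out. The median absolute log2 distance of the held-out library from the geometric mean of the other 5 lay between 0.10 (male tree 1) and 0.16 (female tree 3) for chosen genes. For abundant genes that were not steady over the same 5 libraries it lay between 0.25 and 0.34. A held-out value within 1.2-fold of that mean was found for 73.1% to 89.2% of chosen genes and for 39.1% to 54.4% of the others.

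The same reading across the sexes was uneven. Of 858 genes chosen by the rule in the 3 female trees alone, 836 (97.4%) also had a ratio of at most 1.5 among the 3 male trees, and 613 (71.4%) kept it over all 6. Of 980 genes chosen in the 3 male trees alone, 800 (81.6%) had a ratio of at most 1.5 among female trees, and 584 (59.6%) kept it over all 6. Abundant genes that were not steady in the choosing sex were steady in the other sex in 134 of 174 cases (77.0%, chosen in female) and 20 of 65 cases (30.8%, chosen in male). The median ratio in the other sex was 1.13 for genes chosen in female trees and read in male trees, and 1.23 for the reverse. Male trees were closer to each other than female trees were in all pairs: over the 883 genes at 100 TPM or more in every library outside the 100 highest means, whatever their ratio, the median absolute log2 difference was 0.106 to 0.124 in the 3 male pairs and 0.159 to 0.191 in the 3 female pairs. Across the sexes, in 9 pairs, it was 0.182 to 0.275. A level at least 2-fold lower in male trees was found for 15 of the 858 genes and at least 2-fold higher for 4. Of the 980 genes chosen in male trees, 48 were at least 2-fold lower in female trees and 10 at least 2-fold higher.

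Although each member was held within 1.5-fold, the set as a whole sat slightly higher in female trees in the deposited TPM. On the log2(TPM + 1) scale the median member was 0.084 higher in female than in male trees (quartiles -0.03 and 0.18), a fold of 1.06, and 377 of 554 members (68.1%) had the higher mean in female trees. The highest single value of a member was in a female tree for 407 members (73.5%), against 45.5% of all tested genes, and the lowest was in a female tree for 229 (41.3%), against 61.1%. By library, the median deviation of the members from their own gene means was 0.052, 0.028 and 0.037 in female trees 1, 2 and 3 and -0.03, -0.05 and -0.05 in male trees 1, 2 and 3. The 2 sexes did not overlap in this median. Leaving out each library in turn kept the median sex difference of the members between 0.074 and 0.092, and without female tree 2 it was 0.087. Scaling moved it further, to 0.21 after TMM-type scaling, 0.18 after scaling by the median of all tested genes and 0.0094 after quantile normalization. It was 0.0035 after scaling by the members, which centres them by design. In the deposited TPM it was 0.041 over the 225 genes of the stricter ratio limit tried, and 0.017 over the genes the rule chose after TMM-type scaling.

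**Figure D2:**
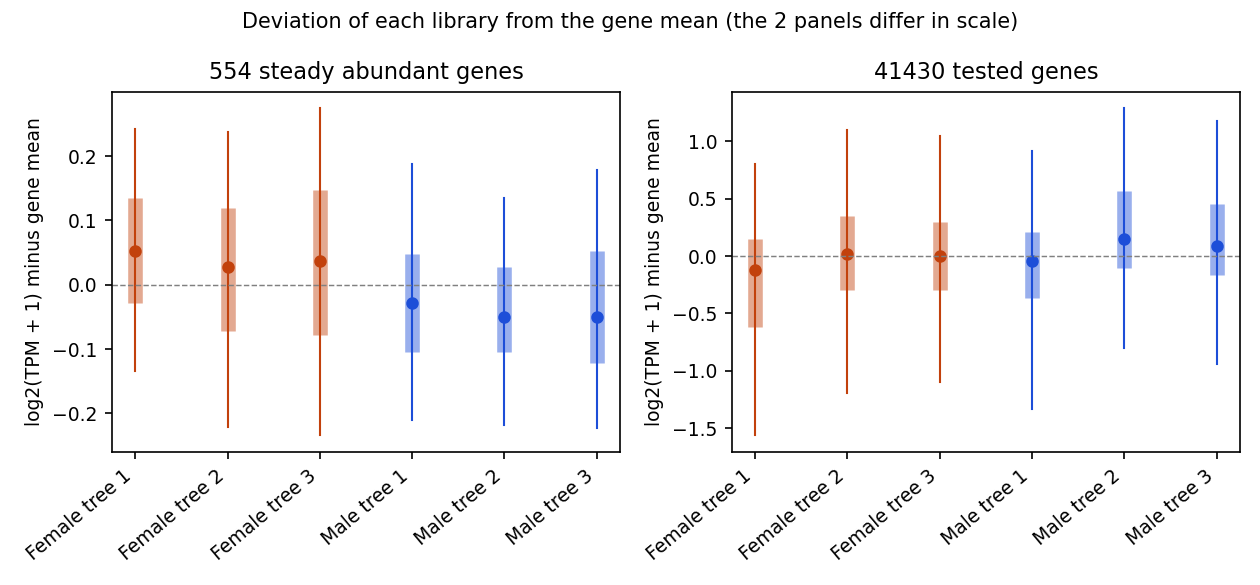
Deviation of log2(TPM + 1) from the gene's mean over 6 libraries (y axis) for the 554 steady abundant genes (left) and all 41430 tested genes (right, on a wider scale), by library (x axis; female trees orange, male trees blue). Points are medians, thick bars the middle 50% and thin lines the 5th to 95th percentile of genes. The medians of the steady genes are above 0 in the 3 female trees and below 0 in the 3 male trees, whereas those of all tested genes run from -0.12 in female tree 1 to 0.15 in male tree 2.

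In the deposited TPM all tested genes together went the other way, a direction that did not hold under every scaling. Their median female-minus-male difference was -0.11 on the log2(TPM + 1) scale, so the members stood 0.19 above it. After TMM-type scaling the median of all tested genes was -0.0077, and after quantile normalization it turned to 0.025. The median over all tested genes depended on single libraries, at -0.05 when female tree 1 was left out, -0.17 when male tree 1 was and -0.07 when male tree 2 was. When female tree 2 was left out it was -0.14, and the members stood 0.23 above it. The sign of the median sex difference followed level: it was -0.20 at a mean of 1 to 5 TPM, -0.14 at 5 to 10, -0.07 at 10 to 20, -0.02 at 20 to 50 and 0.025 at 50 to 100 TPM. It was 0.10 at 100 to 200 TPM, 0.074 at 200 to 500 and 0.055 at 500 to 1000, and -0.05 at 1000 TPM or more. The positive median was not particular to the steady genes: the 329 abundant genes with larger ratios had a median of 0.093. Among the 100 highest means the median was -0.05, and among the 46 steady ones of these it was -0.04.

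**Figure D3:**
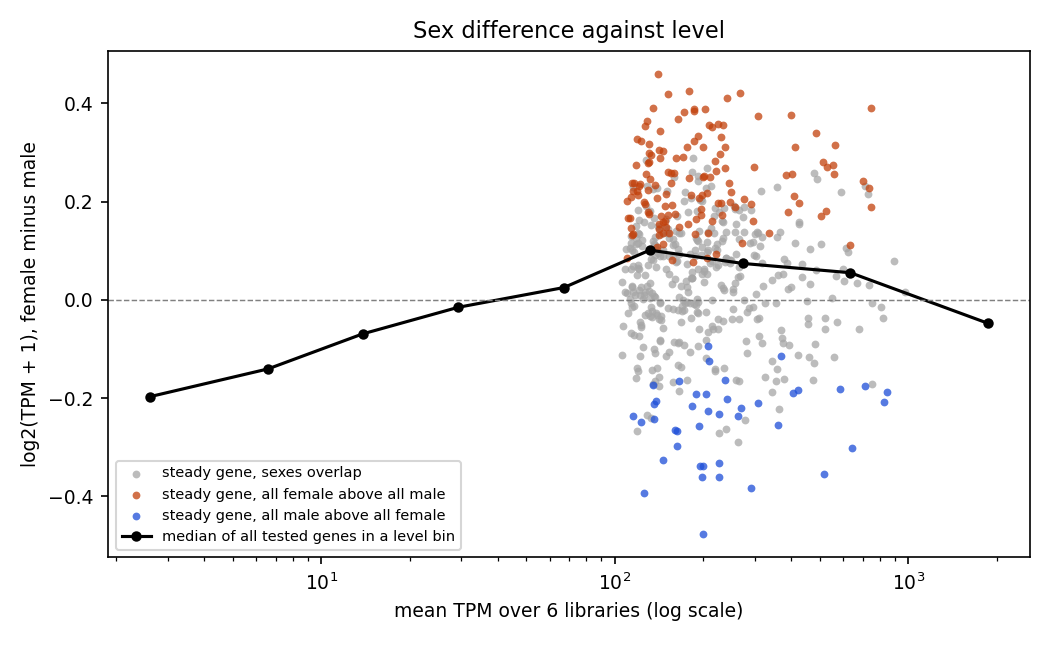
Difference of mean log2(TPM + 1), female minus male (y axis), against mean TPM over 6 libraries (x axis, log scale). Each coloured or grey point is 1 of the 554 steady genes, with colour marking genes whose sexes do not overlap, and black points joined by a line are medians of all tested genes in 9 bins of level, drawn at the median level of the bin. The line rises through 0 between 20 and 100 TPM and is at its highest, 0.10, at 100 to 200 TPM.

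Small sex shifts remained in single members. All 3 female libraries lay above all 3 male ones in 139 members (25.1%), and all 3 male above all 3 female in 42 (7.58%). Over all tested genes these shares were 12.6% and 18.4%. The rule used these values, so nothing is read from the difference between the shares. The median fold was 1.18 in the 139 and 1.17 in the 42. A mean at least 1.1 times higher in female trees was found in 190 members and in male trees in 71, at least 1.2 times in 53 and 17, and at least 1.3 times in 11 and 3. The counts by direction turned with the scaling. TMM-type scaling gave 174 members with all female libraries on top and 4 with all male libraries on top. Quantile normalization gave 68 and 76. Dividing each library by the members' own median gave 74 and 80, but this centres the members in every library and so pulls their split towards even. Shares over all tested genes are not given on these scales, so nothing is read about the members in particular.

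In limma, fitted on all 41430 tested genes with Benjamini-Hochberg adjustment over all of them, 25 members (4.51%) had an adjusted p under 0.05, 19 of them with the female excess (3.43%) and 6 with the male excess (1.08%). The background over all tested genes was 11.6%, made up of 4.71% with female and 6.94% with male excess. Since the ratio limit caps the difference a member can show, the low share is fixed in part by the rule. The called folds ran from 1.23 to 1.38 in the 19, with a median of 1.299, and from 1.254 to 1.39 in the 6, with a median of 1.28. At an unadjusted limma p under 0.05 81 members had the female and 27 the male excess. The same count over all tested genes is not given here, so nothing is read from this split. The number of calls fell whenever 1 library was left out, by an amount that differed with the library. The 19 became 1, 13 and 8 when female trees 1, 2 and 3 were left out in turn, and 2, 1 and 1 for male trees 1, 2 and 3. The 6 became 2 without any 1 female tree and 1 without any 1 male tree. Over all tested genes the calls fell in these fits as well, from 1951 to between 1054 and 1705 with female excess. With male excess they fell from 2874 to between 1559 and 2360. Each such fit has fewer libraries, so the fall is not read as particular to a tree or to the members. Without limma's intensity trend no member was called, whereas 1644 of all tested genes were called with female and 2601 with male excess. In that fit 16 and 5 members had an unadjusted limma p under 0.05, again without a count over all tested genes.

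The 2 called members with the largest female excess are genes of unknown function. TRINITY_DN23019_c0_g1 stood at 166.78, 164.23 and 159.11 TPM in female trees 1, 2 and 3 and at 122.35, 115.16 and 118.00 TPM in male trees 1, 2 and 3. Every female tree was above every male tree, with means of 163 ± 3.91 and 118.5 ± 3.62 TPM (SD, n = 3). The log2 difference was 0.46 ± 0.066 (SE), a fold of 1.38, with a limma adjusted p of 0.00785. It stayed called in 16 of 17 alternative fits, with limma adjusted p from 0.00625 to 0.097, the highest without the trend. It is the sole listed gene of its assembly component.

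TRINITY_DN30631_c0_g2 stood at 209.61, 213.57 and 193.34 TPM in female and at 154.81, 159.35 and 144.14 TPM in male trees. The sexes did not overlap, and the means were 206 ± 10.7 and 153 ± 7.81 TPM (SD, n = 3). The log2 difference was 0.43 ± 0.079 (SE), with a limma adjusted p of 0.0187. The call was lost in 6 of 17 alternative fits, and over all 17 the limma adjusted p ran from 0.0177 to 0.134. Leaving out female tree 1 gave 0.0653, and leaving out male trees 1, 2 and 3 gave 0.0611, 0.0562 and 0.0792. The log2 difference itself stayed between 0.38 and 0.47 whichever library was left out. Its component lists 4 genes, so reads could have been divided between them. Another of the 4 is also a member, at a mean of 567 TPM, with a log2 difference of 0.048 and overlapping sexes.

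The 2 called members with the largest male excess are likewise unannotated. TRINITY_DN31646_c2_g2 stood at 166.42, 167.25 and 165.91 TPM in female and at 237.25, 234.04 and 225.66 TPM in male trees. The female trees lay within 2 TPM of each other and wholly below the male trees, with means of 167 ± 0.676 and 232 ± 5.98 TPM (SD, n = 3). The log2 difference was -0.48 ± 0.065 (SE), with a limma adjusted p of 0.00665. It stayed called with each library left out in turn and was lost in 3 of 17 alternative fits. Over all 17 the limma adjusted p ran from 0.00378 to 0.115, the highest after TMM-type scaling.

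TRINITY_DN31091_c0_g1 stood at 103.61, 109.10 and 114.06 TPM in female and at 153.86, 140.46 and 136.30 TPM in male trees. All male trees were above all female trees, with means of 143.5 ± 9.18 and 109 ± 5.23 TPM (SD, n = 3). The log2 difference was -0.39 ± 0.080 (SE), with a limma adjusted p of 0.0256. The call was lost in 9 of 17 alternative fits, and over all 17 the limma adjusted p ran from 0.0124 to 0.252. Leaving out female trees 1 and 2 gave 0.0846 and 0.0553, and leaving out male trees 1, 2 and 3 gave 0.0818, 0.0833 and 0.0643. The log2 difference itself stayed between -0.43 and -0.34 whichever library was left out. These 2 genes share their components with 1 and 2 other listed genes. The 1 other gene in the component of TRINITY_DN31646_c2_g2 is also a member, with all male trees above all female trees as well.

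**Figure D4:**
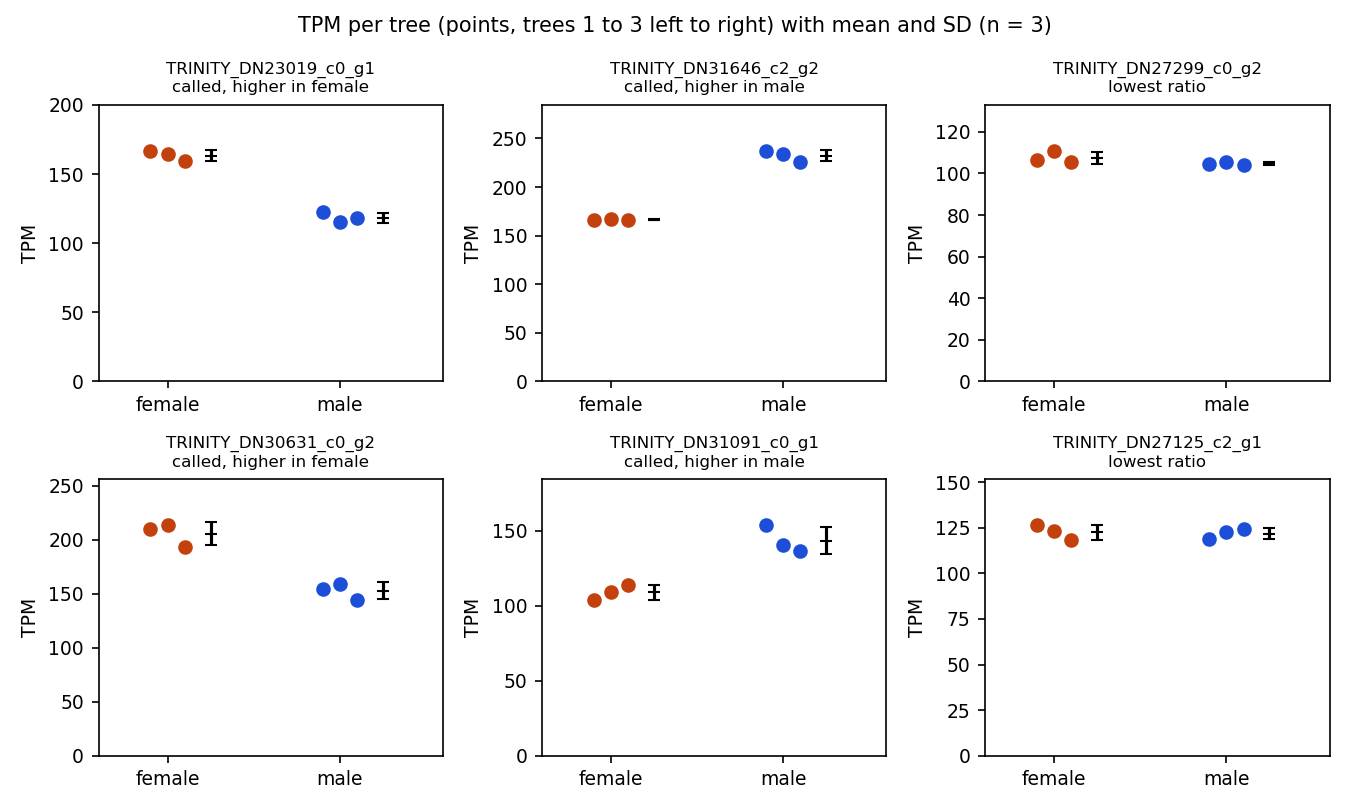
TPM (y axis, from 0) in each tree for 6 steady genes: 2 called higher in female (left), 2 called higher in male (middle) and the 2 with the lowest ratio (right). Points are trees 1 to 3 from left to right within a sex, and the black mark is the mean with its SD (n = 3). The called genes separate the sexes by less than 1.5-fold, and the genes on the right lie between 104.11 and 126.51 TPM.

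What these genes say about library scaling was read from held-out libraries, since a set chosen for even TPM cannot test the TPM it was chosen on. For each library, genes steady over the other 5 gave the median log2 ratio of that library to their geometric mean. The offsets were 0.069, 0.013 and 0.044 for female trees 1, 2 and 3 and -0.04, -0.07 and -0.07 for male trees 1, 2 and 3. By the abundant steady genes, every library was within 5% of the others (folds of 0.953 to 1.05), with female trees on the high side and male trees on the low side. The female mean of these offsets was 0.042 ± 0.028 and the male mean -0.06 ± 0.018 (SD, n = 3), a difference of 0.099. The 6 offsets are not independent, since each is taken against the other 5 libraries.

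Over all genes that reached 1 TPM in at least 3 of the other 5 libraries (39069 to 40104 genes), the offsets were wider and in another order. They were taken on log2(TPM + 1), which understates the change of low genes, whereas those of the steady genes were taken on log2(TPM). The offsets over all these genes were -0.17, 0.0041 and -0.02 in female trees 1, 2 and 3 and -0.07, 0.14 and 0.074 in male trees 1, 2 and 3. Female tree 1, the highest library by steady abundant genes, was the lowest by all genes. Male tree 2 was near the lowest by steady abundant genes and the highest by all genes. The same 2 libraries had the lowest and the highest median gene over the whole table, at 3.23 TPM and 5.25 TPM. The female-minus-male difference of these offsets was -0.11, opposite in sign to the 0.099 from the steady genes.

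**Figure D5:**
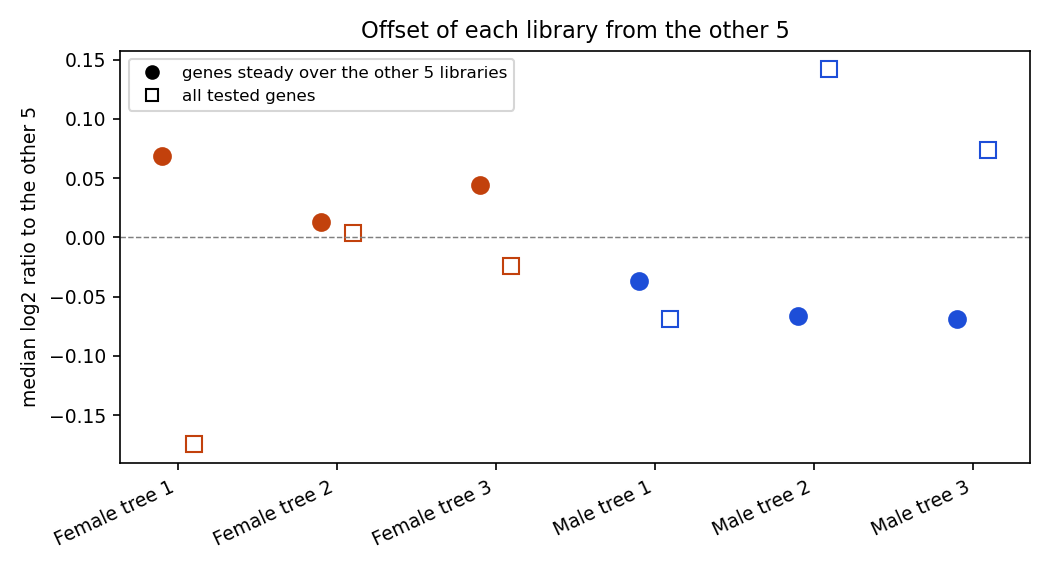
Median log2 ratio of each library to the geometric mean of the other 5 (y axis) for genes that were steady over those 5 libraries (filled circles) and for all tested genes (open squares), by library held out (x axis). Filled circles lie between -0.07 and 0.069, and open squares between -0.17 and 0.14.

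The 2 kinds of scaling therefore could not both be met by 1 factor per library. TMM-type factors, taken over the bulk of genes, were 0.891, 1.01 and 0.977 for female trees 1, 2 and 3 and 0.956, 1.12 and 1.06 for male trees 1, 2 and 3. Factors from the members' medians were 1.04, 1.02 and 1.03 for female and 0.982, 0.967 and 0.967 for male trees. The members were chosen on the deposited TPM, which holds these factors close to 1. TMM-type scaling moved the median of all tested genes up by 0.103, to -0.0077, and the median member to 0.21. Scaling by the members brought their own median to 0.0035 and that of all tested genes to -0.18. A single factor per library shifts members and other genes alike, so under both the gap could not close, and it was 0.22 and 0.18. Quantile normalization, which bends each library's scale with level, moved the median of all tested genes up by 0.136 and closed the gap to -0.02.

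Which genes count as steady also depended on the scale. After TMM-type scaling the rule found 361 genes, of which 348 were among the 554 (62.8% of the members and 96.4% of the 361). After scaling by the median of all tested genes it found 419, of which 405 were members (73.1% and 96.7%). After quantile normalization it found 574, of which 527 were members (95.1% and 91.8%). In held-out libraries after TMM-type scaling, 85.3% of the chosen genes kept a ratio of at most 1.5, summed over the 6 libraries, against 92.7% on the deposited TPM. The offsets from steady genes then ran from -0.24 in male tree 2 to 0.26 in female tree 1. The balance of sex calls over all tested genes moved with the choice. The deposited TPM gave 1951 with female and 2874 with male excess, whereas scaling by the members gave 1741 and 3250 and TMM-type scaling 2131 and 2452. With quantile normalization they were 2385 and 2441.

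The assembly linked some members to genes outside the set. Identifiers that share a component were linked by the assembler, and such genes may be copies, variants or pieces of one another. The 554 members fell in 541 components, and 210 (37.9%) were the sole listed gene of theirs, against 28.6% of the 329 abundant genes with larger ratios. Among the 344 members with other listed genes, the member held a median of 93.9% of the component's TPM, and over 50% of it in 318. Genes that were not members were listed in 326 of the components, and their sum there had a median of 11.6 TPM. This sum had a ratio of at most 1.5 in 65 of the 326 components (19.9%), with a median ratio of 2.59, so the evenness of a member was mostly not shared by the rest of its component. Among all tested genes the share was 2.59% at a mean of 1 to 5 TPM, 14.1% at 5 to 10, 37.6% at 10 to 20 and 50.8% at 20 to 50. The sums were not matched to genes of the same level, so whether they were less even than other genes was not tested. In components of the abundant genes with larger ratios, the sum of the other genes had a ratio of at most 1.5 in 35 of 226 (15.5%).

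Of 861 tested genes that share a component with a member and are not members, 33 were called with female and 63 with male excess by limma (11.1%), close to the 11.6% of all tested genes. Their median sex difference was -0.20 on the log2(TPM + 1) scale, at a median level of 3.41 TPM, and all tested genes averaging 1 to 5 TPM also had a median of -0.20.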

How the data were processed

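The authors deposited 1 table per library, with 1 value per gene. Neither the labels nor the headers name the unit, which was taken as TPM because the deposited values are not whole numbers and their library totals are nearly equal. Gene identifiers have the style of the Trinity assembler, per the file headers and rows. How reads were trimmed, assembled and quantified is not given in the sources used here. The 6 tables were joined by identifier. Genes reaching 1 TPM in at least 3 libraries entered a two-sided limma 3.58.1 fit (R 4.3.3) of log2(TPM + 1) on sex, with the variance trend on, no replicate block, and Benjamini-Hochberg adjustment over all of them at 0.05. This scale understates the change of low genes. The fit was tested on simulated data with added changes larger than a member can show. That test does not bear on the calls among members. TMM-type scaling trimmed 30% of log ratios and 5% of levels at each end. Quantile normalization was applied to log2(TPM + 1) of the tested genes for the fits. Where the rule was applied again, it was applied to TPM of all listed genes. Named genes are the 2 called members with the largest difference in each direction and the 2 with the lowest ratio. The members and tests were chosen with earlier results of these data known.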

Additional observations from a re-analysis of the deposited data

How the results depend on the processing

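The rule's own limits set the size of the group: 225 genes at the stricter ratio limit tried, 1324 at a floor of 50 TPM and 193 at 200 TPM, and 361 after TMM-type scaling. Leaving out each library gave 583 to 644. The members' median sex difference was 0.208 after TMM-type scaling, 0.184 after scaling by the median of all tested genes, 0.0094 after quantile normalization and 0.0035 after scaling by the members. Members were also chosen again after those first 3 scalings, an alternative added after the data were seen. The median was then 0.141, 0.137 and 0.0214. The last used quantile normalization of TPM over all listed genes, whereas the 0.0094 used log2(TPM + 1) of the tested genes. Left-out libraries gave 0.0735 to 0.0917. Members called higher in female trees (19) numbered 6 after quantile normalization, 8 after scaling by the members, 0 without the trend and 1 to 13 with a library left out. Those higher in male trees (6) numbered 13, 14, 0 and 1 to 2, and 0 after TMM-type scaling or scaling by the median of all tested genes, where 1 and 5 had an unadjusted limma p under 0.05. A filter of 5 TPM tested fewer genes, so its counts of 1185 and 1602 cannot be set directly against the 1951 and 2874. It called 25 and 6 members. Array weights, by which limma weighs libraries unequally, gave 26 and 8 members. Left-out libraries gave 1054 to 1705 and 1559 to 2360 of all tested genes, and the fit without the trend gave 1644 and 2601. Genes kept in a held-out library were 85.3% after TMM-type scaling, 80.2% at the stricter ratio limit and 97.4% at a ratio of 2, and the offset difference was 0.192 after TMM-type scaling. Genes chosen in female trees were steady in male trees in 95.7%, 86.7% and 98.8% under these settings, and those chosen in male trees in 76.7%, 61.8% and 92.4%. For all of these the cause was not tested. A fit with a replicate block, by tree number, called 1421 and 2273 genes and 1 and 1 members. Trees of the same number had deviations correlated at 0.175, 0.071 and -0.04. Female and male trees of different numbers were correlated at -0.149 to 0.105, the highest being female tree 2 with male tree 3. Whether trees of the same number were handled together cannot be told from these values. Unknown depth limits all values.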

Other observations

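Few steady genes came in groups. In 13 components 2 members stood side by side, 26 genes in all, and the other 528 members were alone in their component. Of the 329 abundant genes with larger ratios, 16 shared a component with another of that class, in 8 components. Such sharing was thus not particular to the steady genes.

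The first principal component of the members' deviations held 45.4% of their variation. Its weights were 0.33, 0.31 and 0.56 in female trees 1, 2 and 3 and -0.37, -0.37 and -0.46 in male trees 1, 2 and 3. The second, with 21.3%, set female tree 2 (-0.77) against female tree 3 (0.53). Between sexes lay 44.3% of the members' summed squares, 57.8% of those of the 329 abundant genes with larger ratios and 47.3% of those of all tested genes. The members were chosen on these values, so the shares are a description.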
